A study of Mus musculus with 16 samples.

Results

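The 10 genes described here, Fos, Fosb, Jun, Junb, Egr1, Ier2, Dusp1, Atf3, Nr4a1 and Klf6, are immediate early genes, and were followed through RNA sequencing of the mouse retinal pigment epithelium (RPE), the pigmented layer behind the photoreceptors. They were chosen by name and are 10 of the 51912 genes in the deposited count table. All 10 averaged at least 1 CPM (counts scaled to a library of 1e+06), the level needed to be tested, as did 15380 genes in all. The question was whether their levels differed with exposure to hydroquinone, an oxidant, or with loss of Sucnr1, the gene of the succinate receptor. In these data none of the 10 passed the test in any of the comparisons. Most of them peaked in the same library: 1 wild-type library with hydroquinone held the highest level of 8 of the 10 genes, as it did of 14.8% of all tested genes. Egr1 and Nr4a1 were highest elsewhere, and Klf6, at 140 CPM there, was at 137 CPM in an untreated wild-type library.

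Immediate early genes are transcribed within minutes of a stimulus, from factors already present in the cell, without the need for new protein. Growth factors, calcium entry, oxidants and mechanical or surgical disturbance induce them through SRF and CREB, and their transcripts are short-lived. They therefore also report handling of an animal and dissection of a tissue. Fos and Fosb proteins pair with Jun and Junb proteins to form the AP-1 transcription factor, and Atf3 protein can pair with Jun. Egr1, Nr4a1 and Klf6 encode zinc finger transcription factors, Nr4a1 being an orphan nuclear receptor. Dusp1 encodes a phosphatase that switches off MAP kinases, and Ier2 encodes a small nuclear protein.

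The 16 libraries came from male C57BL/6 mice aged 40 weeks, each library from 1 eye, in 4 groups of 4. The groups were untreated wild type (libraries from 2 mice), wild type exposed to hydroquinone (4 mice), untreated Sucnr1 knockout (3 mice) and knockout exposed to hydroquinone (4 mice). The titles name these 13 mice, while the labels' protocol gives 4 animals per group. This conflict was not settled, and the titles were followed. Route, dose and duration of the exposure, the knockout allele and the time from death to storage are not given in the sources used here. After removal of the cornea, iris, lens and retina, the eyecup was stored in an RNA preservative and the RPE was taken off the choroid.

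Total counts ranged from 21113549 to 35332444 per library, and genes with at least 1 count from 17904 to 24477. Sucnr1 itself held 29 counts over the 8 wild-type libraries, 4 of them at 0, and 4 counts over the 8 knockout libraries, 6 of them at 0, which is too few to check the genotype labels. Of 12 RPE markers, 11 were at 146 CPM or more in every library, and Best1 was at 0.988 to 3.33 CPM. The mean log2(CPM + 1) of the RPE markers, called the RPE score, ranged from 9.24 to 10.1. Markers of other cells were also present: the same score over 15 rod markers ranged from 3.28 to 9.78. Over 6 corneal markers, called the corneal epithelium score, it ranged from 7.13 to 9.30. Kera, among these 6, is a gene of the corneal stroma and was at 0.494 to 14.9 CPM. In bulk tissue, fewer cells of a type and less RNA per cell cannot be told apart. The identifiers of the libraries are of a form with a letter or a form without. Each group had both, with 1 lettered library in wild type with hydroquinone.

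The promoters of 4 members are shown because Fos varied with Nr4a1, and Junb with Dusp1, between mice, as given below. Each sequence is the 250 bases upstream of the RefSeq transcript start (GRCm38.p6), 5′ to 3′ on the gene's strand. Capitals mark TGACG, the core of the CREB binding site, or its reverse complement CGTCA. In Dusp1 the capitals also mark the full palindrome TGACGTCA, which holds the core on both strands.
Fos, chr12:85473640-85473889, plus strand: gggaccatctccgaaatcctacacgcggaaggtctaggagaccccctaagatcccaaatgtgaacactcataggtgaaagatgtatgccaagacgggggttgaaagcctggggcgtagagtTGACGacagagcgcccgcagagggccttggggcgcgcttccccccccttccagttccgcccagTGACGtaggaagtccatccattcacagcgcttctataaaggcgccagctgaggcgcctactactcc
Nr4a1, chr15:101266596-101266845, plus strand: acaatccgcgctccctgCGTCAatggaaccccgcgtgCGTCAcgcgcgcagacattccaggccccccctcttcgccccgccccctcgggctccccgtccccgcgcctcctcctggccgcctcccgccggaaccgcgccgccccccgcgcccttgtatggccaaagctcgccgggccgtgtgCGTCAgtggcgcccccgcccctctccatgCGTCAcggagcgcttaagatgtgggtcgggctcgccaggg
Junb, chr8:84978749-84978998, minus strand: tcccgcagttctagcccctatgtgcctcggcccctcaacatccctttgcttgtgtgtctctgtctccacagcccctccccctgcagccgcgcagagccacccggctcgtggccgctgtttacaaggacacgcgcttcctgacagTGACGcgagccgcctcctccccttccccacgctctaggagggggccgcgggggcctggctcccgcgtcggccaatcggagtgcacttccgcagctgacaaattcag
Dusp1, chr17:26508473-26508722, minus strand: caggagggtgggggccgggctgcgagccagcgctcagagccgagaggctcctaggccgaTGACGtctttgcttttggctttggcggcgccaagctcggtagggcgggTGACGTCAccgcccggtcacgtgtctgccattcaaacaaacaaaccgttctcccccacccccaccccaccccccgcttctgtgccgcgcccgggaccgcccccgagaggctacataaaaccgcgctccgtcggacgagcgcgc

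RefSeq windows of this kind were matched for 8 of the 10 members, all but Egr1 and Ier2. TGACG, searched on both strands, was in 6 of these 8 windows (Fos, Fosb, Junb, Dusp1, Atf3 and Nr4a1) and in 17.8% of 32851 promoter windows. Nr4a1 held 4 matches, Dusp1 held 3, Fos held 2 and the others 1 each. The full palindrome was in Dusp1 and in 1.55% of all windows. The Fos window also held TATAAA, the TATA box, which is in 12.4% of windows. Fosb and Nr4a1 each held GCGGGGGCG, a binding sequence of EGR proteins, found in 2.57% of windows. The AP-1 motif TGANTCA, found in 6.75% of all windows, and the SRF-binding CArG box, found in 1.47%, were in none of the 8. Only the 250 bases of each window were searched, so the absence of a motif there says nothing of sequence farther upstream, or of Egr1 and Ier2. A match to these letters is a description and not a site.

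Per length of exon, Junb, Jun and Klf6 were the most abundant members and Fosb the least. The mean level over 16 libraries, in CPM per kilobase of exon, was 33.0 ± 23.0 (SD) for Junb, 29.7 ± 7.83 for Jun, 24.8 ± 4.54 for Klf6, 19.3 ± 8.40 for Dusp1 and 18.7 ± 12.4 for Ier2. It was 12.8 ± 8.09 for Egr1, 9.33 ± 9.30 for Fos, 6.73 ± 2.53 for Atf3, 5.17 ± 2.93 for Nr4a1 and 0.985 ± 0.940 for Fosb. Neighbours in this order differed by less than the larger of their SDs, except Nr4a1 and Fosb. Reads of overlapping genes on opposite strands cannot be told apart where the strand setting of the counting is unknown. Such overlap touched 7.52% of the exon length of Junb (with Prdx2, at a mean of 229.6 CPM), 7.28% of that of Jun (with Junos, 1.25 CPM) and 0.332% of that of Dusp1 (with Ergic1).

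Fos (chromosome 12, 85473890 to 85477273, plus strand, GRCm38) encodes a dimer partner of AP-1 and is a standard readout of recent stimulation. It was at 18.4, 13.8, 15.5 and 27.9 CPM in replicates 1 to 4 of untreated wild type, and at 13.6, 98, 12.8 and 13.5 CPM in the exposed wild type. In untreated knockout it was at 11.3, 10.4, 11.9 and 28.2 CPM, and in knockout with hydroquinone at 39.5, 14.9, 8.94 and 12.4 CPM. Of the 16 libraries, 12 lay at 18.4 CPM or less. The other 4, 1 in each group, stood above the rest of their group. The groups overlapped.

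The log2 fold change of Fos with hydroquinone was 0.87 ± 0.66 (SE) in wild type (edgeR quasi-likelihood test, adjusted p = 0.994) and 0.30 ± 0.66 in knockout (adjusted p = 1.00). Without replicate 2 of wild type with hydroquinone, the value in wild type was -0.51, and without replicate 1 of knockout with hydroquinone, the value in knockout was -0.35. The direction of Fos in each genotype thus rested on 1 library.

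Fosb (chromosome 7, 19302696 to 19310051, minus strand), a paralog of Fos, was at 8.18, 5.37, 3.71 and 10 CPM in untreated wild type and at 5.05, 26.7, 2.46 and 3.11 CPM in the exposed wild type. It was at 5.85, 4.03, 4.16 and 6.25 CPM in untreated knockout and at 3.65, 5.25, 2.69 and 1.97 CPM in knockout with hydroquinone. Its highest level was in the same wild-type library as that of Fos. Among the exposed mice its log2 fold change of knockout against wild type was -1.46 ± 0.63 (SE), with an unadjusted p of 0.0356 and an adjusted p of 1.00 in edgeR's test. Without that library it was -0.064.

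Jun (chromosome 4, 95049034 to 95052222, minus strand), the main partner of Fos, varied far less. It was at 107, 88.5, 94.1 and 127 CPM in untreated wild type and at 102, 161, 61.6 and 74.8 CPM with hydroquinone. The knockout libraries were at 74.3, 88.8, 86 and 70.8 CPM untreated and at 79.7, 122, 90.8 and 87.2 CPM with hydroquinone. Its highest and lowest libraries were both wild type with hydroquinone. Its log2 fold change with hydroquinone, averaged over genotype, was 0.093, with a 95% interval from -0.27 to 0.45.

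Junb (chromosome 8, 84974484 to 84978718, minus strand), which as a partner in AP-1 is a weaker activator than Jun, was at 105, 48.9, 44.9 and 112 CPM in untreated wild type and at 119, 246, 24.9 and 56.5 CPM with hydroquinone. In knockout it was at 58.8, 36.5, 44.3 and 57.7 CPM untreated and at 73.5, 89.2, 51.5 and 48.3 CPM with hydroquinone. Libraries of wild type with hydroquinone held both its highest and its lowest level. Its averaged log2 fold change with hydroquinone was 0.47, with a 95% interval from -0.32 to 1.25, and 0.095 without replicate 2 of the exposed wild type, the library at 246 CPM.

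Atf3 (chromosome 1, 191170296 to 191218039, minus strand), a stress-induced factor of the ATF/CREB family, was at 16.2, 15.5, 9.92 and 12.1 CPM in untreated wild type and at 14.6, 31.7, 12.2 and 18.8 CPM with hydroquinone. In untreated knockout it was at 10.4, 11.6, 8.29 and 11.6 CPM, and in knockout with hydroquinone at 14, 18.8, 12.8 and 13.6 CPM. The knockout groups did not overlap. This held for 1 of the 10 members in knockout, beside 1.91% of all 15380 tested genes, and for none in wild type, beside 2.91%. The log2 fold change with hydroquinone was 0.53 ± 0.26 (SE) in wild type and 0.50 ± 0.26 in knockout. Without replicate 2 of the exposed wild type it was 0.18 in wild type and 0.34 averaged over genotype. With all libraries the averaged value was 0.51 ± 0.19, with a 95% interval from 0.12 to 0.91 and an unadjusted p of 0.0148. The adjusted p over all genes was 0.823, so Atf3 did not pass. It was the only member with an unadjusted p below 0.05 for hydroquinone averaged over genotype, while 5.72% of all 15380 genes were below it.

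Egr1 (chromosome 18, 34859823 to 34864984, plus strand), induced through SRF, was at 39.1, 34.5, 112 and 122 CPM in untreated wild type and at 27.2, 113, 91.3 and 26 CPM with hydroquinone. In knockout it was at 35, 18.3, 37.9 and 86.7 CPM untreated and at 78.6, 37.7, 26.5 and 33.9 CPM with hydroquinone. Every group held low libraries, at 39.1 CPM or less, and at least 1 high library, at 78.6 CPM or more. The averaged log2 fold change with hydroquinone was -0.13, with a 95% interval from -1.03 to 0.76.

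Nr4a1 (chromosome 15, 101254269 to 101274795, plus strand) was at 13.7, 28.1, 15.2 and 28.4 CPM in untreated wild type and at 9.63, 35.6, 18.3 and 8.04 CPM with hydroquinone. It was at 6.23, 14, 14.8 and 28.4 CPM in untreated knockout and at 38.8, 10.6, 9.85 and 10.9 CPM in knockout with hydroquinone. Replicate 1 of knockout with hydroquinone was the highest library of all, and was also the highest of its group for Fos and Egr1. The averaged log2 fold change with hydroquinone was -0.053, with a 95% interval from -0.91 to 0.80.

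Klf6 (chromosome 13, 5861482 to 5870394, plus strand) was the steadiest member. It was at 137, 102, 107 and 113 CPM in untreated wild type and at 120, 140, 93.2 and 111 CPM with hydroquinone. In knockout it was at 125, 124, 86.9 and 68.9 CPM untreated and at 102, 132, 90.8 and 91.4 CPM with hydroquinone. The averaged log2 fold change was 0.027, with a 95% interval from -0.26 to 0.32, the narrowest of the 10.

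Dusp1 (chromosome 17, 26505590 to 26562128, minus strand) was at 116, 52, 50.3 and 75 CPM in untreated wild type and at 70.5, 140, 35.1 and 59.7 CPM with hydroquinone. Levels in knockout were 54.1, 43.3, 46.4 and 46.8 CPM untreated and at 56.1, 77.8, 47.6 and 51.8 CPM with hydroquinone. The untreated knockout libraries lay close together, at 43.3 to 54.1 CPM. Of the wild-type libraries only replicate 3 with hydroquinone, at 35.1 CPM, lay below them, and the others lay within or above that range. The averaged log2 fold change with hydroquinone was 0.18, with a 95% interval from -0.35 to 0.70.

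Ier2 (chromosome 8, 84661331 to 84662852, minus strand) was at 30.2, 18.3, 20.6 and 43.1 CPM in untreated wild type and at 32.1, 93.3, 13.3 and 21.1 CPM with hydroquinone. Knockout libraries held 20.4, 15.7, 21.3 and 27.4 CPM untreated and at 30.5, 29.8, 18 and 21 CPM with hydroquinone. Without replicate 2, the wild-type library at 93.3 CPM, the averaged log2 fold change with hydroquinone went from 0.37 to -0.054.

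**Figure D1:**
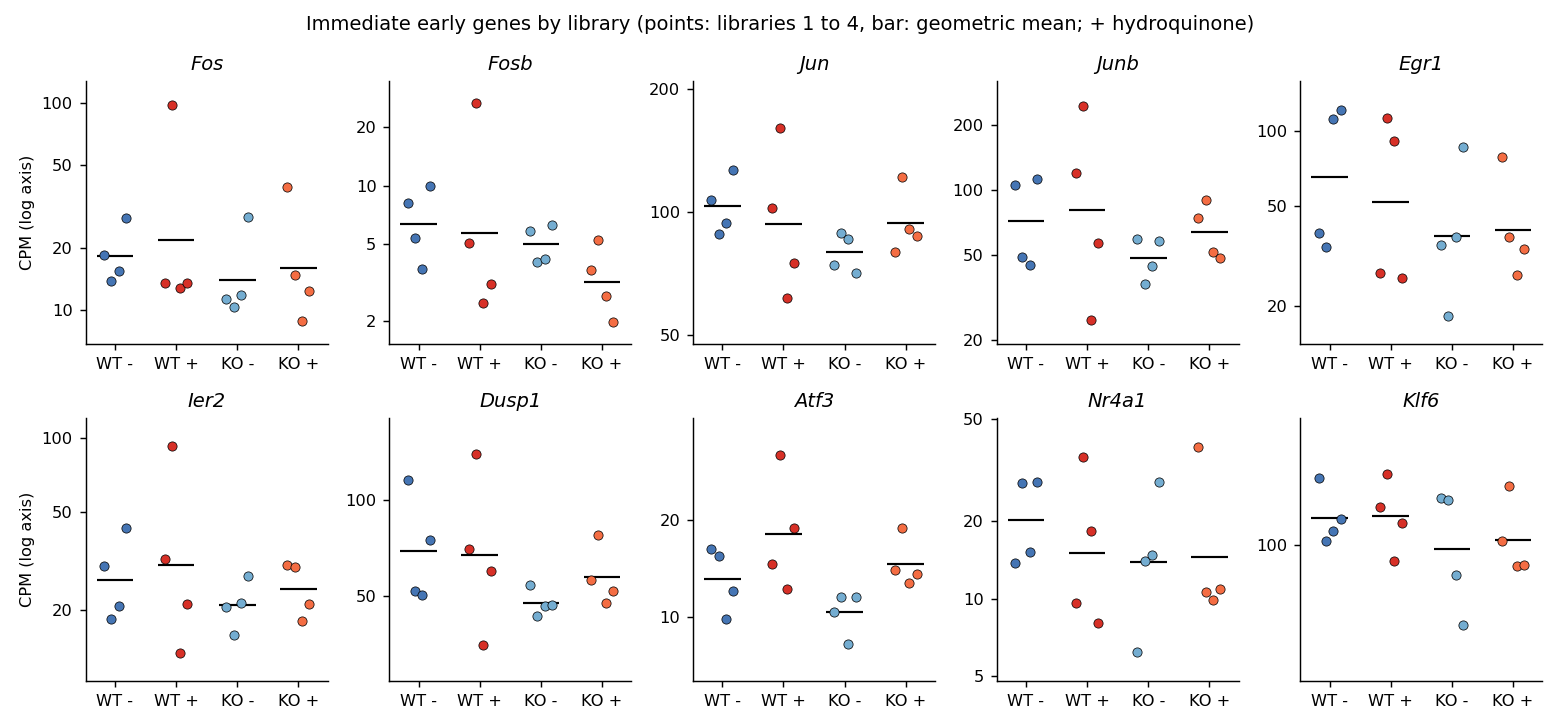
Level of each member in CPM (log axis) in the 16 libraries, grouped by genotype (WT, KO) and hydroquinone (- untreated, + exposed). Points are libraries 1 to 4 of a group and bars are geometric means; replicate 2 of wild type with hydroquinone is the highest library of its group in all 10 panels, and exposed and untreated groups overlap except for Atf3 in knockout, where 1.91% of all tested genes do not.

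Hydroquinone against untreated was tested in each genotype and averaged over genotype, and no member passed an adjusted p below 0.05 in any of these comparisons with edgeR. DESeq2 and limma called none either. Among all 15380 genes the calls were also few: 1 gene in wild type (0.0065%), 7 in knockout (0.0455%) and 13 averaged over genotype (0.0845%). The median log2 fold change of the members was 0.26 in wild type, 0.24 in knockout and 0.13 averaged over genotype, beside -0.00020, -0.0014 and 0.0046 over all genes tested. In wild type 7 members were higher and 3 lower, and in knockout 8 were higher and 2 lower. With limma on log2(CPM + 1), wild type had 5 higher and 5 lower with a median of -0.010. Knockout had 9 higher and 1 lower in that fit, with a median of 0.19. In edgeR without replicate 1 of knockout with hydroquinone, the knockout median was 0.079, with 6 higher and 4 lower. The 95% intervals in wild type were wide for Fos (-0.54 to 2.28) and narrow for Klf6 (-0.39 to 0.43), so a log2 change of 1 lay inside the interval of Fos and outside that of Klf6.

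In edgeR the direction in wild type came from 1 library. Without replicate 2 of wild type with hydroquinone, 1 member was higher and 9 lower, and the median in wild type was -0.40. Averaged over genotype it was then -0.065, with 2 higher and 8 lower. Replicate 2 also had the largest library (35332444 counts) and a corneal epithelium score of 9.21, the second highest after 9.30 in replicate 1 of the same group. With the corneal score as a covariate, an alternative chosen after seeing the data, the median in wild type was -0.105, with 4 higher and 6 lower. Among libraries whose identifier has no letter the averaged median was 0.55, and among those with a letter it was -0.35. With a letter, the medians were -0.53 in wild type, with 1 exposed library, and -0.18 in knockout, with 4 members higher and 6 lower.

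**Figure D2:**
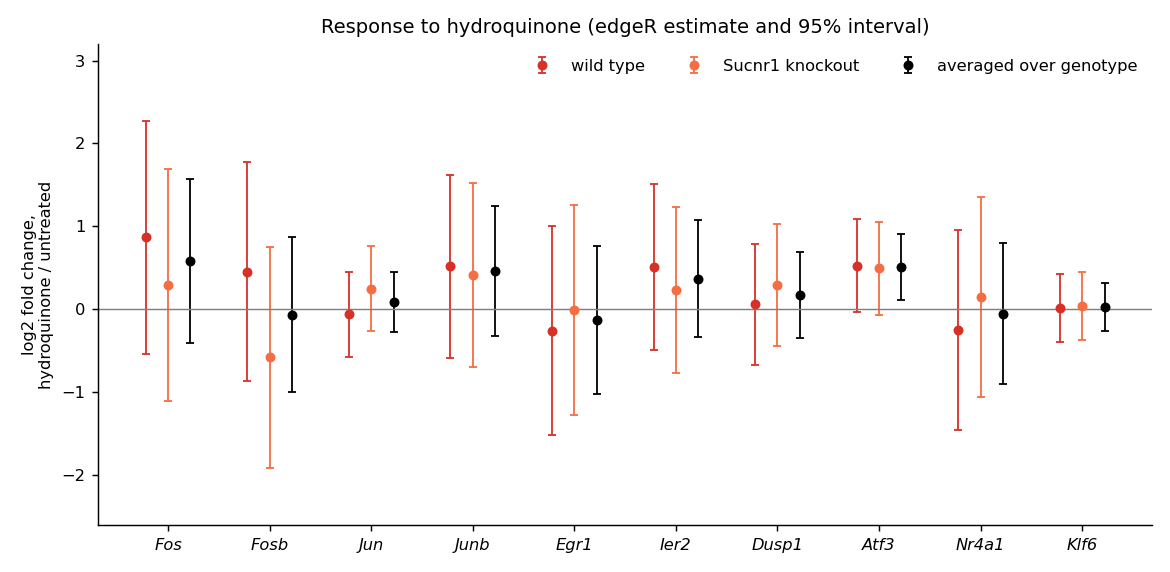
Log2 fold change with hydroquinone (points) and 95% interval from edgeR (bars) for each member, in wild type, in knockout and averaged over genotype. Every interval in either genotype includes 0; averaged over genotype, the interval of Atf3, 0.12 to 0.91, does not, at an adjusted p of 0.823.

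Knockout was compared with wild type at each treatment, and again no member passed, beside 0% of all genes in either comparison. At an unadjusted p below 0.05 there were 203 genes untreated and 643 with hydroquinone, with 0 and 1 members among them, the latter being Fosb. All 10 members had lower fitted levels in knockout in both comparisons. The median log2 fold change was -0.42 untreated and -0.47 with hydroquinone, beside 0.011 and 0.015 over all genes. Egr1 was the farthest from 0 untreated, at -0.79 ± 0.60 (SE), followed by Junb at -0.66 ± 0.52 and Dusp1 at -0.62 ± 0.35. Their groups overlapped. Egr1 was at -1.35 without replicate 4 of untreated knockout and -0.48 without replicate 4 of untreated wild type, and Dusp1 was at -0.31 without replicate 1 of untreated wild type.

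Some of the members vary together between mice, as given below, and the 2 comparisons are of different libraries. With hydroquinone the shared direction rested on replicate 2 of the exposed wild type: without it 5 members were higher and 5 lower, and the median was 0.029. With the corneal score as a covariate the median with hydroquinone was 0.015, and untreated it was -0.26 with all 10 lower. With rod and corneal scores together it was 0.22 with hydroquinone, 7 higher and 3 lower, and -0.20 untreated, 2 higher and 8 lower. The corneal score was 8.32 ± 0.57 (SD) in untreated wild type and 8.09 ± 0.33 in untreated knockout, and it was 8.57 ± 0.82 and 7.83 ± 0.75 with hydroquinone (n = 4 libraries each). The untreated wild-type values come from 2 mice.

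The interaction asks whether hydroquinone acted differently in the genotypes. No member passed, beside 0% of all genes, and 296 genes had an unadjusted p below 0.05, none of them a member. The median log2 difference was -0.0058, with 5 members higher and 5 lower. Without replicate 2 of wild type with hydroquinone, all 10 were positive with a median of 0.64, and none passed. Right and left eyes were compared as well. No member passed, beside 0% of all genes and 148 genes at an unadjusted p below 0.05. The median of right against left was -0.25, and 0.13 without the same library, which is a left eye.

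Fos, Fosb, Egr1, Nr4a1, Junb and Ier2 varied more between libraries of a group than most genes did, while Jun and Klf6 lay near the middle of all genes. The biological coefficient of variation in edgeR was 0.62 for Fos, 0.60 for Fosb, 0.57 for Egr1, 0.55 for Nr4a1, 0.50 for Junb and 0.46 for Ier2. It was 0.35 for Dusp1, 0.28 for Atf3, 0.25 for Jun and 0.21 for Klf6, beside a median of 0.22 over all tested genes. The value of Fos was above that of 93.1% of tested genes, and that of Klf6 above 44.0%.

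Egr1 differed from Junb in how the eyes of a mouse compared. In the 3 mice that gave both eyes, Egr1 was at 112 CPM in the right and 122 in the left eye of 1 untreated wild-type mouse, at 39.1 and 34.5 CPM in the other, and at 37.9 and 35.0 CPM in the knockout mouse. The eyes of a mouse were alike and the wild-type mice apart. Junb in the same mice was at 44.9 and 112 CPM, at 105 and 48.9 CPM, and at 44.3 and 58.8 CPM. The median absolute log2 difference between eyes was 0.12 for Egr1, beside 1.28 over 21 pairs of libraries from different mice of a group. For Junb it was 1.09 between eyes beside 0.67, and for Fos 0.39 beside 0.68. These 3 mice were all untreated, while the 21 pairs came from exposed and untreated groups alike. With 3 mice and unlike sets of libraries, these values are a description. Over all genes, the consensus correlation between the eyes of a mouse beyond their group was -0.020 in limma.

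**Figure D3:**
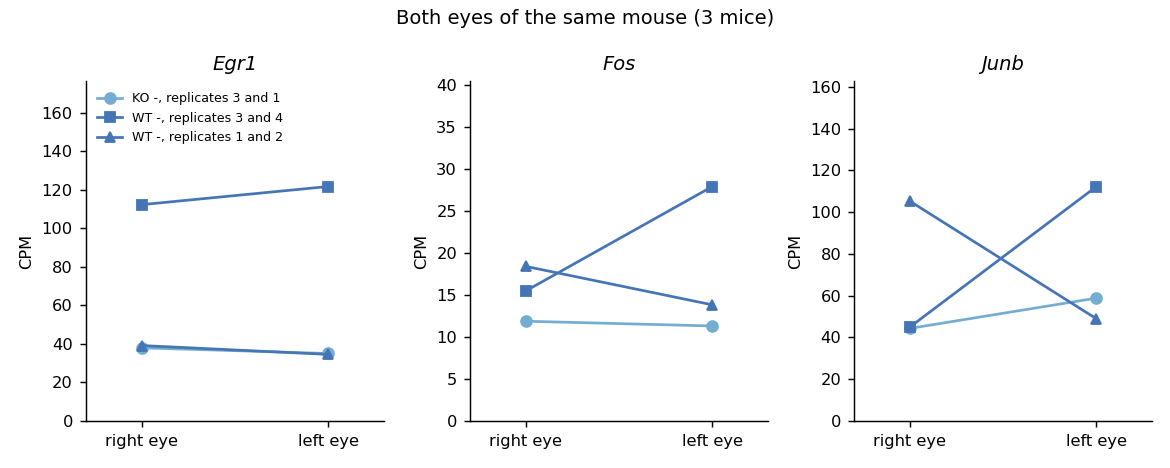
Level in CPM in the right and left eye of the 3 mice that gave both, for Egr1, Fos and Junb; lines join the eyes of a mouse and replicate numbers are right, then left. The Egr1 lines are nearly flat, at 112 and 122 CPM in the highest mouse, while the Junb lines of the wild-type mice cross.

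Across the 13 mice, with group means removed and the eyes of a mouse averaged, each of the other 9 members was related to Fos. Ier2 had a Pearson r of 0.867 (permutation p = 0.00016, adjusted over 9 relations 0.00144) and a Spearman rho of 0.901 (permutation p = 0.00016). Egr1 had an r of 0.726 (permutation p = 0.00129, adjusted 0.0058) and a rho of 0.687 (permutation p = 0.00407). Nr4a1 had an r of 0.870 (permutation p = 0.0143, adjusted 0.0428) and a rho of 0.676 (permutation p = 0.0264, adjusted 0.0585). These 3 passed by r, and without the 2 mice farthest from the median of Fos their r was 0.622, 0.661 and 0.636. The other 6 did not pass, from an r of 0.826 for Fosb (adjusted permutation p 0.0908) to 0.111 for Klf6. The 13 mice allow 6912 distinct orders within groups, which bounds how small these p-values can be.

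Relations to Junb were added after seeing the data. Ier2 (r = 0.952), Dusp1 (r = 0.946) and Fosb (r = 0.901) passed, with adjusted permutation p of 0.00771, 0.00679 and 0.00679. Their rho was 0.879, 0.835 and 0.841, and without the 2 mice farthest from the median of Junb their r was 0.880, 0.730 and 0.927. Egr1 (r = 0.201) and Nr4a1 (r = 0.339) did not pass against Junb, nor did Fos (r = 0.703). Ier2 passed against both Fos and Junb. Whether the r with Fos and the r with Junb differ was not tested.

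**Figure D4:**
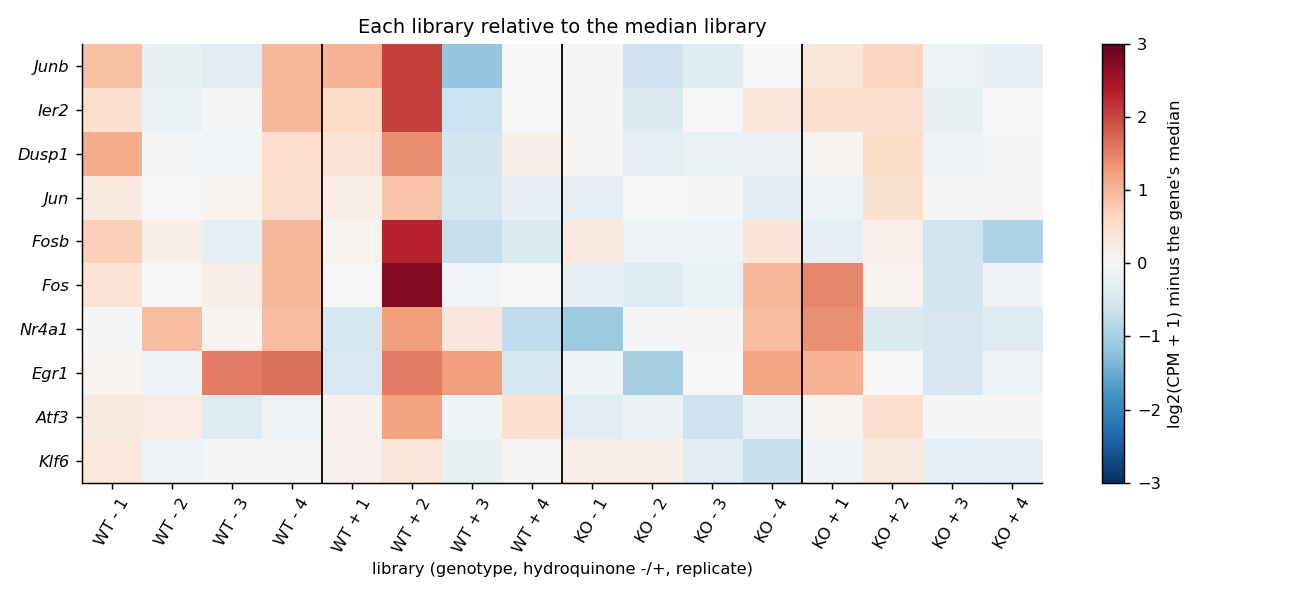
Log2(CPM + 1) of each member in each library minus that member's median over the 16 libraries (colour scale from -3 to 3), with vertical lines between the groups. Replicate 2 of wild type with hydroquinone is above the median for all 10 members, and Fos, Nr4a1 and Egr1 are high in replicate 1 of knockout with hydroquinone and replicate 4 of untreated knockout.

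The members were also related to marker scores of other cell types, and no relation passed after adjustment. Over the 13 mice, with group means removed, the rod score had an r of 0.833 with Nr4a1 (permutation p = 0.00813), 0.703 with Egr1 (permutation p = 0.00707) and 0.670 with Fos (permutation p = 0.00499). Its rho with them was 0.725, 0.769 and 0.588. The corneal epithelium score had an r of 0.827 with Jun (permutation p = 0.00962), 0.766 with Klf6 (permutation p = 0.00169), 0.748 with Junb (permutation p = 0.0342) and 0.736 with Dusp1 (permutation p = 0.0275). Its rho with them was 0.868, 0.786, 0.725 and 0.687. The RPE score had an r of -0.764 with Nr4a1, -0.723 with Fos, -0.588 with Ier2, -0.554 with Fosb and -0.549 with Junb.

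Of these 90 relations, 12 by r and 18 by rho had a permutation p below 0.05. The smallest adjusted permutation p was 0.144 by r and 0.134 by rho, the latter for Junb with the endothelium marker score (rho = -0.786). Without the 2 mice farthest from the median score, the r of Nr4a1 with rods was 0.803 and that of Jun with corneal epithelium was 0.914. Replicate 1 of knockout with hydroquinone and replicate 4 of untreated knockout, both high in Fos, Nr4a1 and Egr1, had the highest rod scores, 9.66 and 9.78. Replicate 2 of wild type with hydroquinone, higher still in Fos and Egr1, had a rod score of 7.60. Replicate 4 of untreated wild type, also high in the 3 genes, had a rod score of 8.28. Replicate 2 of untreated wild type had a higher rod score, 8.63. It was high in Nr4a1, at 28.1 CPM, but low in Fos, at 13.8 CPM, and Egr1, at 34.5 CPM. Replicates 3 and 4 of that group are eyes of 1 mouse. Replicate 3 had the lower rod score, with Egr1 at 112 CPM beside 122 CPM. All 15 rod markers were above 0 in every library, and so were all 6 corneal markers, with Krt12 from 242 to 10340 CPM.

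**Figure D5:**
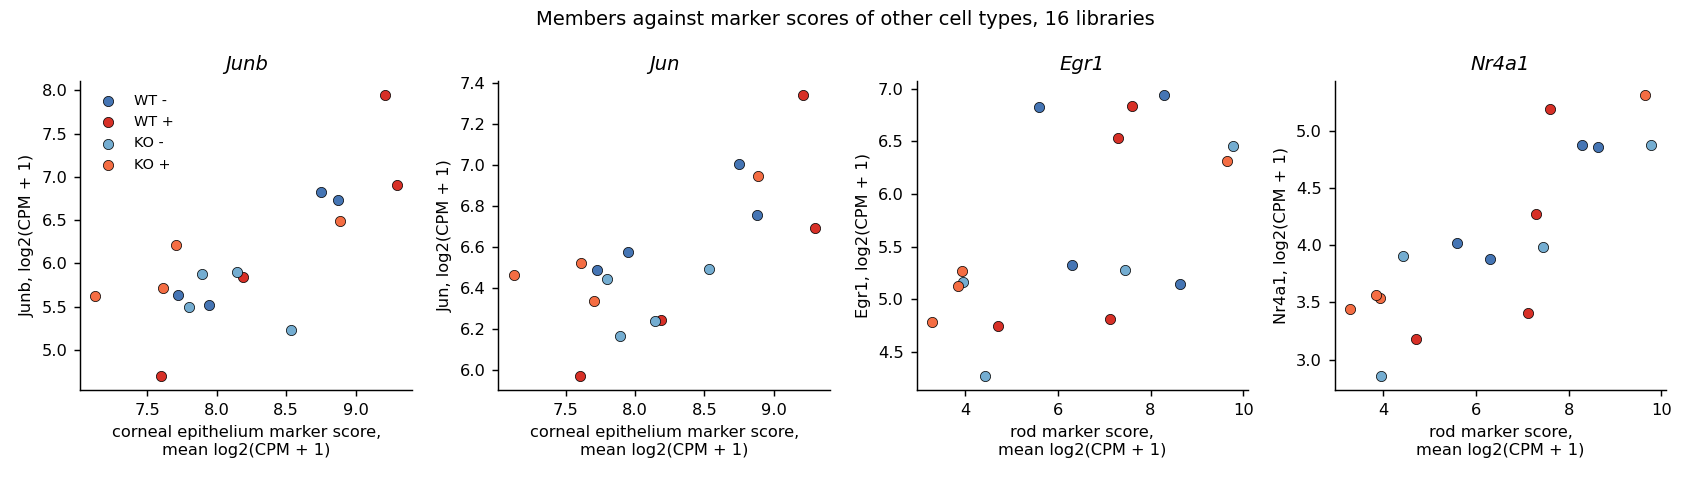
Log2(CPM + 1) of Junb and Jun against the corneal epithelium score, and of Egr1 and Nr4a1 against the rod score (mean log2(CPM + 1) of each marker list), in the 16 libraries coloured by group. Libraries with higher scores tend to hold higher levels; over 13 mice the r was 0.748, 0.827, 0.703 and 0.833, none passing after adjustment over 90 relations.

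A list of 38 other primary response genes, of which 32 were tested, was followed for comparison. None passed in any comparison with edgeR. For hydroquinone averaged over genotype 27 of the 32 were higher and 5 lower, with a median log2 fold change of 0.18, and 4 had an unadjusted p below 0.05, beside 5.72% of all tested genes. Those with the smallest p were Myc, a growth regulator (0.75 ± 0.29 SE, unadjusted p = 0.0215, adjusted 0.825), Nr4a3, a paralog of Nr4a1 (-0.56 ± 0.23, adjusted 0.864), and Socs3, an inhibitor of cytokine signalling (0.29 ± 0.12, adjusted 0.864). Without replicate 2 of wild type with hydroquinone 23 were higher and 9 lower, with a median of 0.085, and 1 had an unadjusted p below 0.05.

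The most abundant of the list by CPM were Dusp6 (245.5), Dusp4 (221) and Ccn2 (183), the first a phosphatase of ERK and the last a secreted matrix protein. Their averaged log2 fold changes were 0.0026, 0.10 and 0.23. Nr4a3 and its paralog Nr4a1 stood at -0.56 and -0.053, and neither passed. Jund, an AP-1 gene usually expressed steadily, was counted at 0.215 CPM, and 52.6% of its exon length overlaps the antisense gene Gm11175, itself at 0.207 CPM. It was not tested, and neither were Fosl1, Egr3, Egr4, Npas4 and Dusp2, all below a mean of 1 CPM. A list of 11 heat shock genes was followed as a possible sign of handling. All were tested and none passed, with a median of 0.067 for hydroquinone averaged over genotype, 6 higher and 5 lower. Their mean log2(CPM + 1) was highest in replicate 2 of wild type with hydroquinone, at 7.18, followed by 6.99 in replicate 1 of that group. Whether handling or hydroquinone moved these genes was not tested.

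Over the 16 libraries, the 6 other genes most like the mean pattern of the members by Pearson r of log2(CPM + 1) were Gm2619 (r = 0.898), Cfdp1 (0.893), Hras (0.892), Rps15a-ps6 (0.890), Ints11 and Rpl10a (0.887). None of these is an immediate early gene of the lists. Fos, Nr4a1, Junb and Egr1 were also taken singly, which was done after seeing the data. Fos was most like Btg2 (r = 0.931), an antiproliferative primary response gene of the comparison list. Nr4a1 was most like Pde6h (r = 0.876), a subunit of the cone phosphodiesterase. Junb was most like Prelid1 (r = 0.954), followed by Hras (0.949), Rpl8 (0.948) and the member Ier2 (0.948). Egr1 was most like Vps45 (r = 0.796). The points share libraries and depth, so these values are descriptions.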

How the data were processed

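RNA sequencing counts of 16 RPE libraries were analysed. The deposited table is named for FPKM, but its values are whole numbers with differing library totals, so the authors' deposited values were used as counts per Ensembl gene. STAR, Cufflinks, DESeq2 and the build mm10 are named per the submitters' processing notes, with no versions, and the strand setting is not given in the sources used here. Symbols, exons and coordinates came from GENCODE vM21 (GRCm38), which matched 51633 of 51912 identifiers, and promoters from RefSeq (GRCm38.p6).

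edgeR 4.0.16 (R 4.3.3) fitted group means of all 16 libraries by quasi-likelihood with TMM scaling, over the 15380 genes that averaged 1 CPM or more. They held 99.8% of counts. P-values were adjusted by the Benjamini-Hochberg method over these genes at a threshold of 0.05, and standard errors came from the F statistic. CPM values are TMM-scaled. Alternatives included DESeq2 1.42.0 and limma 3.58.1 with the mouse as a random block. Relations across mice used 100000 permutations within groups, 2-sided. Both kinds of test were tested on simulated data. The eyes of a mouse entered edgeR as separate libraries, so p-values partly measure spread within mice. Replicate numbers are only names, given in accession order. No pair of libraries within a group was a copy. From the comparison list, genes past the threshold were to be named, and otherwise the 3 with the smallest p for hydroquinone averaged over genotype and the 3 with the highest mean CPM. The 6 genes most like the members' mean pattern were named too. The members and lists were chosen with earlier results of these data known.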

Additional observations from a re-analysis of the deposited data

Results flagged for a closer look

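In 48 sets of 4 libraries (the 10 members and the scores of 2 of the lists, in each group), the gap of the highest or lowest library to its nearest neighbour, divided by the range, was compared with Dixon's critical value at the 95% level. Chance passes about 1 set in 20, and 3 passed. Fos in replicate 2 of wild type with hydroquinone was far above the other 3 libraries of its group, with a gap of 0.972 of the range. Fos in replicate 4 of untreated knockout stood above its group with a gap of 0.872. Nr4a1 in replicate 1 of knockout with hydroquinone stood above its group with a gap of 0.932. The last 2 of these libraries had the highest rod scores, 9.78 and 9.66.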

How the results depend on the processing

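No immediate early gene passed in any of the 7 comparisons under any alternative run (213 counts, all at 0), which covers scaling, the filter on low counts, DESeq2, limma with a random block for the mouse, eyes summed, covariates and each library left out. Directions of single genes, none of which passed, kept their sign in 617 of 667 values. These values cover every member for hydroquinone averaged over genotype, and only chosen members in the other comparisons. Signs of the remaining members were not counted there, and some changed. With limma, hydroquinone in wild type went from 7 members higher and 3 lower to 5 and 5. With the corneal score as a covariate, wild type went to 4 and 6. Knockout against wild type with hydroquinone went from 0 and 10 to 5 and 5, and untreated it stayed at 0 and 10. The exceptions among the counted values are as follows, as log2 fold changes with hydroquinone averaged over genotype unless said otherwise. The cause was not tested.

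With lettered identifiers only, which leaves 1 exposed wild-type library, Fos was -0.77, Jun -0.17, Junb -0.27 and Ier2 -0.43. In that setting Fos was -0.62 in wild type and -0.91 in knockout, and the interaction of Fosb was 0.15. With identifiers without a letter, Klf6 was -0.10, Fosb 0.38, Egr1 0.55 and Nr4a1 0.89. The rod score as a covariate gave -0.0041 for Klf6, 0.014 for Fosb, 0.017 for Egr1 and 0.14 for Nr4a1. Rod and corneal scores together gave -0.0041 for Klf6, 0.019 for Egr1 and 0.15 for Nr4a1. The identifier form as a covariate gave -0.0042 for Klf6, and the eye gave 0.053 for Fosb and 0.11 for Nr4a1.

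Leaving out each library in turn, the values ran from -0.11 to 0.80 for Fos, -0.76 to 0.095 for Fosb, -0.071 to 0.18 for Jun, -0.35 to 0.13 for Egr1, -0.054 to 0.52 for Ier2, -0.060 to 0.33 for Dusp1, -0.43 to 0.16 for Nr4a1 and -0.055 to 0.086 for Klf6. Junb ran from 0.095 to 0.63 and Atf3 from 0.34 to 0.60. In wild type they ran from -0.51 to 1.14 for Fos and -0.67 to 0.055 for Egr1, in knockout from -0.35 to 0.74 for Fos, and for the interaction of Fosb from -1.35 to 0.36. The lowest averaged values were without replicate 2 of wild type with hydroquinone for Fos, Fosb, Jun, Ier2 and Dusp1, and without replicate 1 of knockout with hydroquinone for Egr1 and Nr4a1.

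Relations to Fos passed for 5 members over 16 libraries in place of 13 mice, beside 3. Among all genes, DESeq2 called 20 for hydroquinone in wild type, 14 in knockout and 37 averaged, beside 1, 7 and 13, and 3 for knockout against wild type with hydroquinone, beside 0. With eyes summed, 3 were called in knockout and 6 averaged. No paired analysis within mice was possible for the treatments and genotypes, because the eyes of a mouse were always in the same group. For the eyes, with the mouse as a block in the 3 mice that gave both, no member passed and the median of right against left was -0.088. With 4 libraries per group, the intervals of Fos, Fosb, Egr1 and Nr4a1 are wide. The lowest count of a member in any library was 46, for Fosb.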

Other observations

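Replicate 2 of wild type with hydroquinone, the library highest in 8 of the 10 members, was also the highest of the 16 for 15 of the 32 tested genes of the comparison list, beside 14.8% of all tested genes. Among these were Klf4, a factor of epithelial cells, at 494 CPM beside a mean of 181 CPM over all libraries, Fosl2, an AP-1 gene, at 284 CPM beside 124, and Btg2 at 66.6 CPM beside 35.9. Dusp4, a phosphatase of MAP kinases, was lowest there, at 138 CPM beside 221. These genes were chosen after their values were seen. The EGR family member Egr2, also chosen after its values were seen, was at 1.06 ± 0.15 CPM in untreated wild type and 2.18 ± 0.50 CPM in exposed wild type (SD, n = 4 per group), with a log2 fold change of 1.04 and an adjusted p of 0.994 in edgeR's test. In knockout it was at 1.22 ± 0.87 and 1.23 ± 0.18 CPM.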
